A study of Mus musculus with 4 samples.

Results

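The genes described here encode the heat shock proteins, chaperonins, prefoldins and J proteins, the main families of molecular chaperones. They were chosen by name: every gene with a probe set annotated to it alone whose symbol starts with Hspa, Hspb, Hspd, Hspe, Hsph, Hsp90, Dnaj or Pfdn, or with Cct followed by a digit. This gave 86 genes of 18193 with such a probe set, and for each the probe set of highest mean signal was used. Of these 86, 71 passed a filter on low signal that 11395 genes passed in all, and they are called measured below. Hsp90ab1 was not analysed here, and 2 annotations that join a member's symbol with another symbol were left out. The prefix also brought in Hspbp1 and Hspbap1, whose products bind a heat shock protein but are not one.

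The samples were epithelial crypts of mouse intestine, isolated by laser capture microdissection. In all, 2 control samples were compared with 2 samples from mutant animals whose beta-catenin gene was deleted, all of them at day 2 after induction of the deletion with tamoxifen. Beta-catenin is the co-activator through which Wnt signals maintain crypt stem and progenitor cells. The labels do not give the Cre driver, the deleted exons, the strain or the age, nor whether control mice also received tamoxifen or whether separate mice gave the 2 samples of a group. Spread between samples may thus be technical, and p-values measure that spread alone. The captured crypts hold several cell types in bulk, so that fewer cells of a type and less RNA per cell cannot be told apart.

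Chaperones bind unfolded or partly folded proteins and help them reach their final shape. HSP70 proteins bind short exposed stretches in cycles of ATP use; J proteins bring them clients and trigger the ATP step, and exchange factors reset them. Prefoldin hands new actin and tubulin chains to the ring-shaped chaperonin CCT, and HSP90 with its cochaperones completes many kinases and receptors. Separate sets serve the mitochondrion and the endoplasmic reticulum. Heat shock factor raises many cytosolic members under stress, and the unfolded protein response raises those of the endoplasmic reticulum.

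Values are normalized log2(signal + 5), and each difference is mutant minus control on that scale with the standard error (SE) of the limma fit. A fold on this scale understates the change of dim genes. With the limma test over 22519 probe sets, 0 probe sets (0%) had a Benjamini-Hochberg adjusted p under 0.05, and 0 of the 71 measured members did, their lowest adjusted p being 0.768. At an unadjusted p under 0.05 there were 1415 probe sets in the whole table and 10 members. No difference below therefore passed the test, and "lower" and "higher" are used only as descriptions of the arrays.

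The deleted gene and the makeup of the samples were examined first. Ctnnb1, the gene of beta-catenin, stood at 12.43 and 12.56 in control and 12.02 and 11.85 in mutant crypts, a difference of -0.56 (SE 0.22; limma, adjusted p = 0.785). Markers of crypt epithelium had a mean of 11.05 to 11.14 on every array. Other lists were less even. Enterocyte markers had means of 12.61 and 11.81 in control and 12.67 and 11.83 in mutant crypts. Lymphocyte markers had 7.36 and 6.13 in control and 7.92 and 6.41 in mutant crypts, so that both lists were higher in replicate 1 of each group. Fibroblast markers were lower there, at 7.54 and 8.32 in control and 8.04 and 8.50 in mutant crypts. All 5 measured genes of dividing cells and all 3 of stem cells had both mutant arrays below both controls, where 19.2% of all genes did, with median differences of -1.09 and -1.04. Mutant replicate 1 stood apart: the 14 measured of 18 listed genes of pancreatic acinar cells had a mean of 12.49 there, against 4.90, 5.03 and 4.58 in control replicates 1 and 2 and mutant replicate 2. The 3 measured genes of pancreatic islets had a mean of 9.17 there and 5.74 to 6.59 elsewhere. All 9 measured immediate early genes, which respond to tissue handling, were higher in the mutants by their means, with a mean of 8.64 in mutant replicate 1 and 7.24 to 7.51 elsewhere. The ratio of 5' to 3' signal of beta-actin, a measure of transcript length after amplification, was 0.149 and 0.0567 in control and 0.0945 and 0.0448 in mutant crypts.

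As a whole, the members lay close to all genes. Of the 71 measured members, 39 were lower and 32 higher in the mutants, with a median difference of -0.05 against 0.01 over all genes tested; over all 86 members the median was -0.02. Both mutant arrays lay below both control arrays for 20 members (28.2%), where 19.2% of all genes did. Both lay above for 9 members (12.7%), against 18.9% of all genes. This balance turned with the scaling of the arrays. With the values as deposited 34 members were lower and 37 higher, and the arrays separated for 8 lower (11.3%; 14.9% of all genes) and 15 higher (21.1%; 14.8% of all genes). With median centring, which moved the median of all genes to 0.13, 31 were lower and 40 higher, with 8 (11.3%) and 13 (18.3%) separated against 10.1% and 18.7% of all genes. An unadjusted p under 0.05 was found for 7 members that were lower and 3 that were higher, where 3.62% of all genes were lower and 3.32% higher at that level. The 7 were Dnajc9, Cct5, Cct4, Hsp90aa1, Dnajc2, Hspbp1 and Hspe1, and the 3 were Dnajc16, Pfdn5 and Dnajb2.

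The 34 measured members other than J proteins and the 37 J proteins gave different counts. Of the 34, 23 were lower and 11 higher, with a median of -0.15. The arrays separated for 13 that were lower (38.2%) and 3 that were higher (8.82%), against 19.2% and 18.9% of all genes. Of the 37 J proteins, 16 were lower and 21 higher, with a median of 0.04, and the shares with separated arrays, 18.9% lower and 16.2% higher, were near those of all genes as normalized here. The difference between these 2 sets was not tested. The excess of separated lower members among the 34 did not hold under the other scalings. With the values as deposited the 34 held 19 lower and 15 higher, with 5 (14.7%) separated each way, against 14.9% and 14.8% of all genes. With median centring they held 18 lower and 16 higher. The arrays then separated for 4 lower (11.8%) and 3 higher (8.82%), against 10.1% and 18.7% of all genes. The J proteins had 3 separated lower (8.11%) and 10 higher (27.0%) as deposited, against the same shares of all genes. With median centring they had 4 (10.8%) and 10 (27.0%). Relative to all genes, the median of the 34 was -0.16 under the quantile normalization used and -0.16 as deposited. Median centring moves all differences by the same amount, so it repeats the deposited value.

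**Figure D1:**
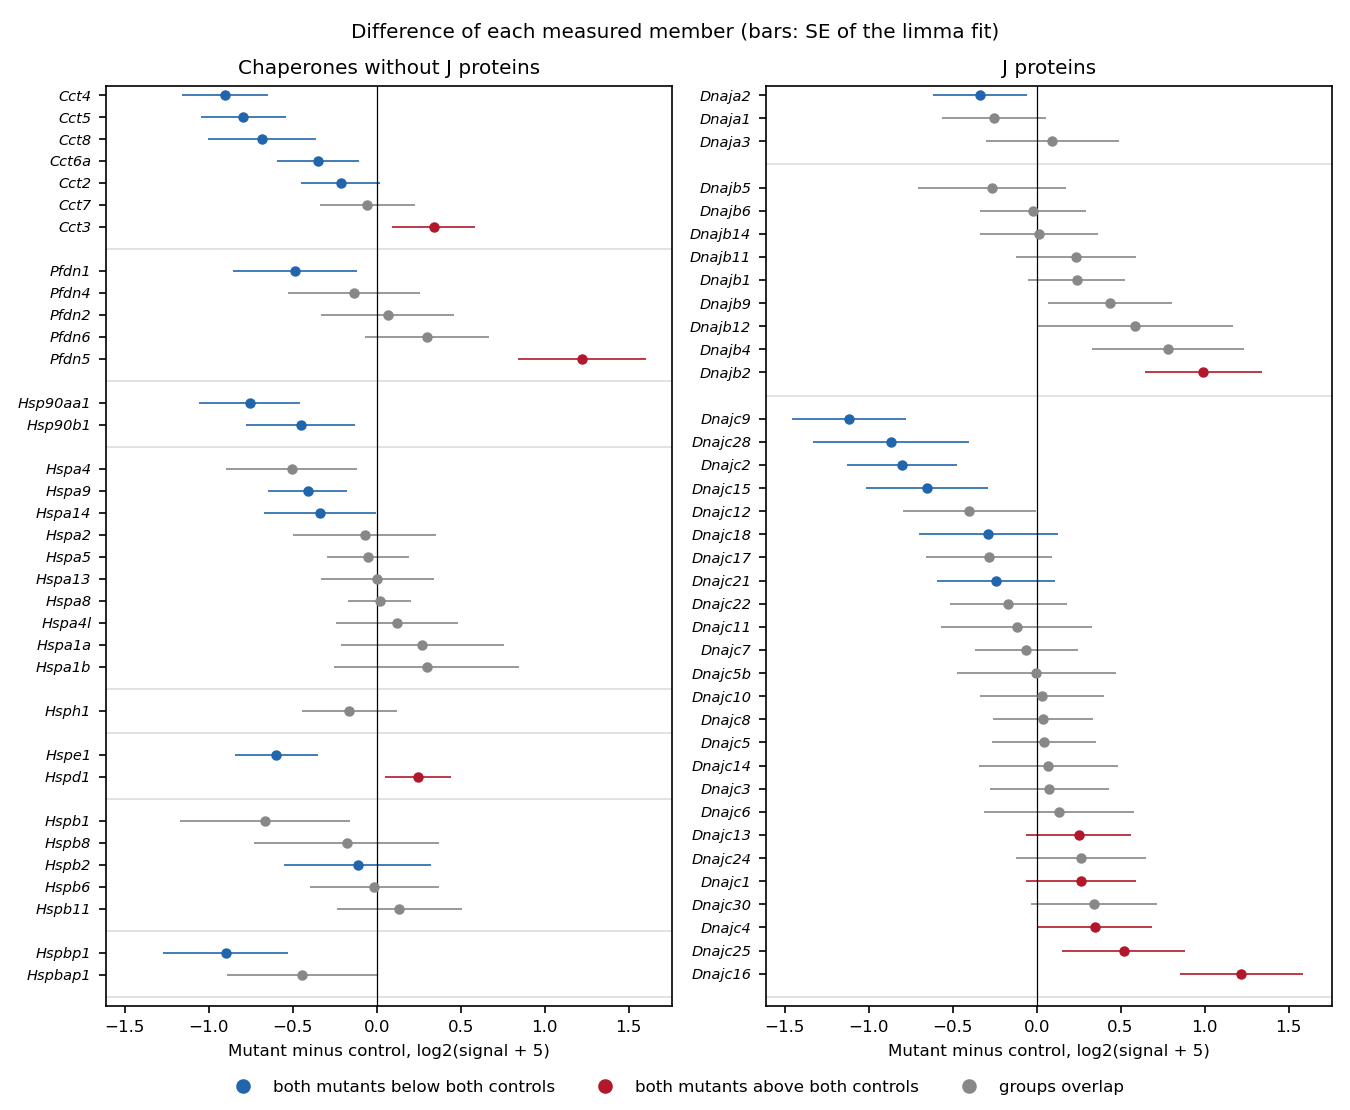
Each point is a measured member's difference, mutant minus control, on the log2(signal + 5) scale, with the SE of the limma fit as a bar (n = 2 arrays a group); J proteins are in the right panel. As normalized here, most chaperonin and HSP90 genes sit left of 0 (with median centring 3 of the 7 CCT genes did), whereas J proteins lie on both sides, from -1.12 for Dnajc9 to 1.22 for Dnajc16.

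CCT subunit genes were mostly lower in the mutant crypts as normalized here, but not with median centring. The CCT chaperonin is a double ring of related subunits that folds actin, tubulin and other cytosolic proteins, and each subunit has its own gene. Of its 7 measured members, 6 were lower and 1 higher with a median of -0.35, and both mutant arrays lay below both controls for 5 (71.4%; 19.2% of all genes). With the values as deposited the counts were 4 lower and 3 higher (median -0.09). Of these subunits 3 (42.9%) were separated lower and 1 (14.3%) higher, against 14.9% and 14.8% of all genes. With median centring the counts were 3 lower and 4 higher (median 0.03), so the direction of the family's median turned with that scaling. There 1 subunit (14.3%) was separated each way, against 10.1% of all genes lower and 18.7% higher. Relative to the median of all genes, the family's median was -0.36 as normalized here and -0.11 as deposited. Median centring moves all differences by the same amount and cannot change the latter. Cct6b and Cct8l1 did not pass the filter on low signal, with values between 2.55 and 2.92 on every array.

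Cct4, Cct5 and Cct8 had the lowest differences among the subunits. Cct4 stood at 11.80 and 11.87 in control and 11.11 and 10.76 in mutant crypts, a difference of -0.90 (SE 0.26) or 1.87-fold lower. Its other probe sets gave -0.89 (SE 0.29), -1.09 (SE 0.52) and -0.60 (SE 0.28), also with both mutants below both controls. A further 2 dimmer ones that passed the filter gave 0.19 (SE 0.36) and 0.12 (SE 0.36), the latter with both mutants above both controls. The brightest probe set and those at -0.89, -1.09 and 0.12 are of a type whose probes may bind other transcripts. Those at -0.60 and 0.19 are not. Cct5 read 11.46 and 11.53 in control and 10.70 and 10.69 in mutant crypts, a difference of -0.80 (SE 0.25), and the mutant arrays were nearly equal. For Cct8 the arrays gave 9.58 and 9.48 in control and 8.69 and 9.0 in mutant crypts, a difference of -0.68 (SE 0.32). In these genes the gap between the groups was wider than the gap between the arrays of either group.

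In Cct2 and Cct6a the separation was narrow. Cct2 read 11.84 and 11.93 in control and 11.58 and 11.77 in mutant crypts, a difference of -0.21 (SE 0.23). This probe set is also of the type whose probes may bind other transcripts. The other probe sets of Cct2 gave -0.60 (SE 0.26) and -0.67 (SE 0.35). Cct6a read 11.97 and 11.95 in control and 11.45 and 11.77 in mutant crypts, a difference of -0.35 (SE 0.24), with -0.45 (SE 0.35) at its other probe set. The sign of Cct2 turned under both other scalings, to 0.04 as deposited and 0.16 with median centring, and that of Cct6a under the latter (0.03). Cct7 overlapped between the groups at 11.70 and 11.82 in control and 11.37 and 12.03 in mutant crypts, a difference of -0.06 (SE 0.28).

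Cct3 was the exception, and its probe sets disagreed. The brightest one stood at 11.71 and 11.39 in control and 11.82 and 11.96 in mutant crypts, a difference of 0.34 (SE 0.25) with both mutants above both controls. The next brightest gave -0.47 (SE 0.31) and -0.74 (SE 0.35), and the latter had both mutants below both controls. Leaving out each array in turn gave 0.18 to 0.51 at the brightest probe set, but averaged over all its probe sets Cct3 differed by -0.12. No direction can be read for this subunit.

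The remaining subunit gene, Tcp1, falls outside the naming rule and belongs to a list of 7 folding partners. It stood at 11.62 and 11.62 in control and 10.82 and 10.78 in mutant crypts, a difference of -0.82 (SE 0.25), close to those of Cct4 and Cct5. Dividing cell markers were lower on the same mutant arrays (mean 8.99 and 9.30 against 10.13 and 10.50 in the controls), and their part in the CCT values was not tested. With mutant replicate 1, the array of high acinar signal, left out, 5 of the 7 CCT members were lower and 2, Cct3 and Cct7, higher, with a median of -0.19.

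**Figure D2:**
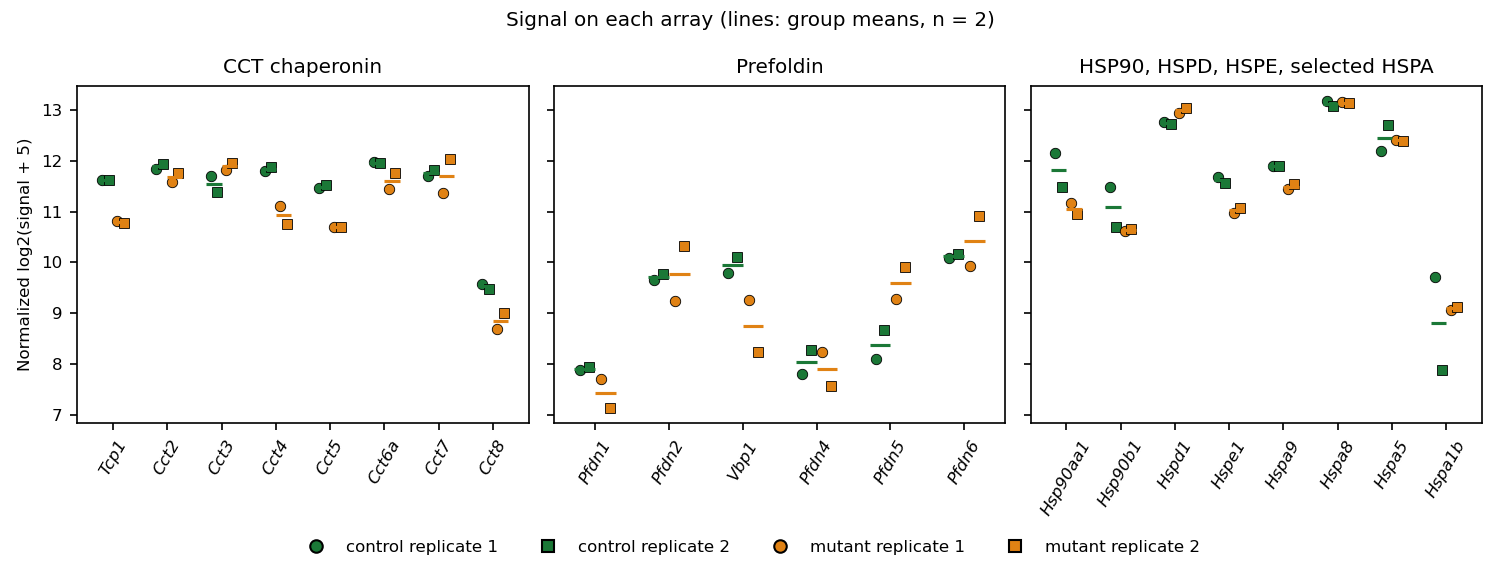
Points give the normalized log2(signal + 5) on each array for the CCT subunits with Tcp1, the prefoldin subunits with Vbp1, and chosen HSP90, HSP60, HSP10 and HSP70 genes; short lines are group means (n = 2). Cct4, Cct5, Cct8, Tcp1 and Hspe1 show mutant arrays clearly under the controls, Hspd1 and Pfdn5 above them, and Hspa1b a spread of 9.72 to 7.88 within the controls alone.

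Prefoldin, the jawed complex that delivers clients to CCT, showed no common direction. Of 5 measured members, 2 were lower and 3 higher, with a median of 0.06. Pfdn5 stood at 8.09 and 8.66 in control and 9.28 and 9.92 in mutant crypts, a difference of 1.22 (SE 0.38) or 2.34-fold higher, one of the widest among the members. Its other measured probe set also had both mutants above both controls, at 0.49 (SE 0.37). Pfdn5 is also known as a binding partner of the transcription factor Myc.

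Pfdn1 went the other way, at 7.88 and 7.93 in control and 7.70 and 7.14 in mutant crypts, a difference of -0.49 (SE 0.37) with the arrays separated. Mutant replicate 2 gave the lowest value. The other subunits overlapped between the groups, with differences of 0.06 (SE 0.40) for Pfdn2, -0.14 (SE 0.39) for Pfdn4 and 0.30 (SE 0.37) for Pfdn6. Vbp1, which encodes a prefoldin subunit under another name, was among the folding partners and stood at 9.79 and 10.11 in control and 9.26 and 8.24 in mutant crypts, a difference of -1.20 (SE 0.40). Differences within the complex ranged from -1.20 to 1.22, and the prefoldin median was 0.60 without mutant replicate 1 and -0.19 without mutant replicate 2. Of the folding partners other than Tcp1 and Vbp1, Uri1 differed by -0.14 (SE 0.33) and Txndc9 by -0.12 (SE 0.30); over all 7 the counts were 5 lower and 2 higher, and with median centring 2 lower and 5 higher.

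Both measured HSP90 genes were lower. Hsp90aa1 encodes the stress-inducible cytosolic HSP90, and Hsp90b1 encodes GRP94, its relative in the endoplasmic reticulum. Hsp90aa1 stood at 12.16 and 11.47 in control and 11.18 and 10.94 in mutant crypts, a difference of -0.76 (SE 0.30) or 1.69-fold lower. Its other probe sets gave -1.20 (SE 0.34) and -1.03 (SE 0.32), both with the arrays separated, so that all 3 gave the same direction. Hsp90b1 stood at 11.49 and 10.69 in control and 10.62 and 10.65 in mutant crypts, a difference of -0.45 (SE 0.33), with -0.80 (SE 0.55) at its other probe set.

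For Hsp90b1 control replicate 2 lay next to the mutants and control replicate 1 alone was high. The difference was accordingly -0.06 without control replicate 1 and -0.85 without control replicate 2. Hsp90aa1 differed by -0.43 without control replicate 1 and by -1.10 without control replicate 2. Both genes were lower under each scaling, with a median of -0.40 as deposited and -0.28 with median centring, but in the deposited values 0 of them had separated arrays.

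Cochaperones of HSP90 were also mostly lower. Of 16 measured genes in a list of 19, 12 were lower and 4 higher with a median of -0.35, the arrays separated for 6 lower (37.5%) and 2 higher (12.5%), against 19.2% and 18.9% of all genes, and 0 passed the test. The counts were 11 lower and 5 higher under each other scaling, with medians of -0.29 as deposited and -0.17 with median centring. The arrays separated for 5 lower (31.25%) and 2 higher (12.5%) as deposited, against 14.9% and 14.8% of all genes. With median centring they separated for 4 lower (25%) and 2 higher (12.5%), against 10.1% and 18.7%. Without mutant replicate 1 the median was also -0.17, with 12 lower and 4 higher. Ruvbl1 and Ruvbl2, the paired ATPases that work with HSP90 in building large complexes, differed by -0.92 (SE 0.38) and -0.63 (SE 0.37). Ahsa1, which stimulates the HSP90 ATPase, stood at 9.95 and 10.20 in control and 9.47 and 9.36 in mutant crypts, a difference of -0.66 (SE 0.30). Stip1 (HOP), which links HSP70 to HSP90, stood at 8.30 and 8.11 in control and 7.57 and 7.78 in mutant crypts, a difference of -0.54 (SE 0.34). For the 9 genes with a second measured probe set, 7 were lower and 2 higher at the brightest and 4 lower and 5 higher at the second. With each gene's probe sets averaged, 12 of 15 were lower and 3 higher, with a median of -0.32.

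HSP70 genes were divided evenly, and for several the answer depended on the probe set. Of 10 measured HSPA members, 5 were lower and 5 higher, with a median of -0.03; Hspa12a, Hspa12b and Hspa1l did not pass the filter. Hspa8, the constitutive HSC70 of the cytosol, stood at 13.17 and 13.08 in control and 13.15 and 13.14 in mutant crypts, a difference of 0.02 (SE 0.19), at its brightest probe set. Its 3 other probe sets gave -0.69 (SE 0.24), -0.78 (SE 0.30) and -0.74 (SE 0.43). The brightest probe set of Hspa8 belongs to a type whose probes may bind other transcripts, as does 1 of these 3.

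The classical heat-inducible genes Hspa1a and Hspa1b, near-identical neighbours that their probe sets may not separate, overlapped between the groups. Hspa1b read 9.72 and 7.88 in control and 9.06 and 9.13 in mutant crypts, a difference of 0.30 (SE 0.55), and Hspa1a read 6.45 and 5.19 in control and 5.92 and 6.26 in mutant crypts, a difference of 0.27 (SE 0.49). In both genes control replicate 1 was the highest array and control replicate 2 the lowest. The mutant values lay between them.

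Hspa4 stood at 12.09 and 10.88 in control and 11.09 and 10.87 in mutant crypts, a difference of -0.51 (SE 0.39), which turned to 0.10 without control replicate 1. Its other measured probe sets gave 0.03 (SE 0.30) and 0.31 (SE 0.46), both with overlap. Hspa4 and Hspa4l belong to the HSP110 type that resets HSP70, as does Hsph1. Hspa4l differed by 0.12 (SE 0.36); a pair of further probe sets had separated arrays at -0.36 (SE 0.35) and -0.65 (SE 0.36). Hsph1 read 10.41 and 10.58 in control and 10.24 and 10.43 in mutant crypts, a difference of -0.16 (SE 0.28); its other probe set gave -0.63 (SE 0.39) with the arrays separated. Hspa2, known for its role in male germ cells, differed by -0.07 (SE 0.42).

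Hspa14 and Dnajc2 encode an HSP70 relative and a J protein that together sit on the ribosome and receive new protein chains. Dnajc2 stood at 9.18 and 9.46 in control and 8.47 and 8.57 in mutant crypts, a difference of -0.80 (SE 0.33). Its other measured probe sets gave -0.92 (SE 0.83) and -0.26 (SE 0.42), both with overlap. Hspa14 read 8.74 and 8.49 in control and 8.30 and 8.25 in mutant crypts, a difference of -0.34 (SE 0.34), with -1.45 (SE 0.91) at a second probe set whose arrays overlapped. At the brightest probe set of both genes the 2 mutants lay below the 2 controls.

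Partners of HSP70 outside the rule gave 9 lower and 3 higher of 12, with a median of -0.18 and 0 past the test; under median centring they were 6 and 6. St13 (HIP), which holds HSP70 in its client-bound state, stood at 9.51 and 9.40 in control and 9.03 and 8.99 in mutant crypts, a difference of -0.44 (SE 0.31). Tomm70a, a mitochondrial import receptor that docks chaperones, differed by -0.64 (SE 0.38), the nucleotide exchange factor gene Bag1 by -0.50 (SE 0.40) and Hyou1, which serves the endoplasmic reticulum, by -0.39 (SE 0.35).

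**Figure D3:**
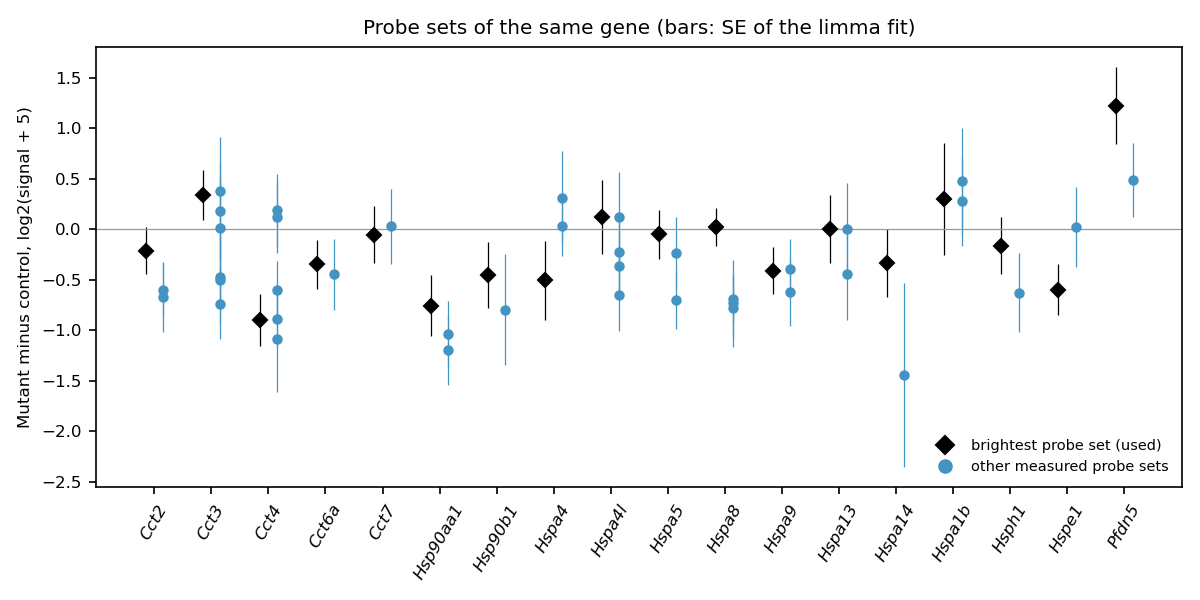
Differences, mutant minus control, on the log2(signal + 5) scale are shown for each measured probe set of 18 genes, with black diamonds for the brightest probe set, blue points for the others and bars for the SE of the limma fit. Hsp90aa1 and Hspa9 agree over their probe sets, while Cct3, Hspa8 and Hspe1 do not.

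Probe sets of the same member often disagreed in sign. The share of such genes over the whole table is not given, so this cannot be read as particular to these families. Of 40 members with more than 1 measured probe set, 22 had probe sets of both signs. The 71 members had 149 measured probe sets, of which 82 were lower and 67 higher. Among the 78 that were not the brightest, 43 were lower and 35 higher, with a median of -0.23 against -0.05 at the brightest. At the second brightest probe set, which 40 members had, 26 were lower and 14 higher with a median of -0.35. The corresponding median over the 4791 genes with a second probe set was -0.03.

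Among the 7 members placed in the mitochondrion, 4 were lower and 3 higher, and the partner genes Hspd1 and Hspe1 went apart. Hspd1 encodes HSP60, the mitochondrial chaperonin, and Hspe1 encodes HSP10, the lid that closes it. The genes lie head to head on mouse chromosome 1 and share the stretch between their starts. That stretch is shown because it holds the heat shock elements found in the promoter windows of both genes. It runs from the start of Hspd1 that lies before Hspe1 on the plus strand, at base 55087932, up to the start of Hspe1. The capitals mark 4 units of GAA or TTC, each 2 bases from the next, which is the arrangement that heat shock factor trimers bind; the sequence is from RefSeq, build GRCm38.p6, chr1:55087933-55088147, plus strand, 215 bases.
Hspd1-Hspe1: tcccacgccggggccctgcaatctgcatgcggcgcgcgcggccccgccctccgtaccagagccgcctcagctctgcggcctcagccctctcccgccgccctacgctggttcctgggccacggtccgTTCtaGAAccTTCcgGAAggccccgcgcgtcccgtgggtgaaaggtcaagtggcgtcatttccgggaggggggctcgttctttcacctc

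The arrays of the pair separated in opposite directions. Hspd1 read 12.76 and 12.73 in control and 12.94 and 13.05 in mutant crypts, a difference of 0.25 (SE 0.20), from its single measured probe set. Hspe1 read 11.68 and 11.57 in control and 10.97 and 11.08 in mutant crypts, a difference of -0.60 (SE 0.25) or 1.51-fold lower. The second, dimmer probe set of Hspe1 gave 0.02 (SE 0.39), so its direction rests on a probe set that may also bind related transcripts. RefSeq lists a further start of Hspd1 at base 55088243, past the start of Hspe1 at 55088148. This further start lies closer to Hspe1 than the one used for the stretch, and from it the genes overlap.

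Hspa9 encodes mortalin, the HSP70 of the mitochondrial matrix that pulls in imported chains. It stood at 11.90 and 11.90 in control and 11.44 and 11.54 in mutant crypts, a difference of -0.41 (SE 0.23), and its other probe sets gave -0.39 (SE 0.29) and -0.63 (SE 0.33), also with the arrays separated. Leaving out each array in turn gave -0.46 to -0.36. Dnajc15, a J protein of the import motor, stood at 8.95 and 9.32 in control and 8.78 and 8.19 in mutant crypts, a difference of -0.65 (SE 0.36).

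Dnaja3, Dnajc11 and Dnajc30 overlapped between the groups, with differences of 0.09 (SE 0.39), -0.12 (SE 0.45) and 0.34 (SE 0.38). In all 3 control replicate 1 was the lowest array. The median of the mitochondrial members, -0.12, was -0.42 without control replicate 1, 0.22 without control replicate 2 and -0.071 without mutant replicate 1. Of 7 other genes of mitochondrial protein quality control, 6 were lower and 1 higher, with 0 past the test. The protease subunit genes Clpx and Clpp differed by -0.62 (SE 0.39) and -0.39 (SE 0.32), the mitochondrial HSP90 gene Trap1 by -0.40 (SE 0.32) and the inner membrane protease gene Afg3l2 by 0.42 (SE 0.34).

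Members placed in the endoplasmic reticulum, by a list written after the values were seen, were mostly higher at their brightest probe sets, by small amounts. Of 12 genes, 10 were higher and 2 lower with a median of 0.16, and the arrays separated for 3 higher (25.0%) and 1 lower (8.33%), against 18.9% and 19.2% of all genes. The counts were 10 higher and 2 lower as deposited and 11 higher and 1 lower with median centring. Of the 9 with a second measured probe set, 7 were higher and 2 lower at the brightest, while at the second 3 were higher and 6 lower, with a median of -0.31. With each gene's probe sets averaged, 7 of the 12 were higher and 5 lower. Acinar cells of the pancreas are rich in this compartment, and the acinar transcripts of mutant replicate 1 are given above. Without that array 8 of the 12 were higher and 4 lower, with a median of 0.18; leaving out each other array also gave 8 higher and 4 lower, with medians of 0.095 to 0.23. The part of the acinar transcripts in these values was not tested.

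The unfolded protein response acts on such genes through the ER stress element, CCAAT and CCACG held 9 bases apart. Among RefSeq promoter windows (250 bases before to 50 after each start), 0.119% of 32851 held it on either strand, and 3 members did: Hspa5, Hsp90b1 and Dnajc3. The elements are shown because the main HSP70 and HSP90 of the compartment and a partner of BiP share them. Capitals mark the CCAAT and CCACG parts or their complements, and positions are from build GRCm38.p6. Hspa5 is chr2:34772015-34772053 on the plus strand, Hsp90b1, with 2 elements, chr10:86705523-86705666 on the minus strand, and Dnajc3 chr14:118937817-118937855 on the plus strand.
Hspa5: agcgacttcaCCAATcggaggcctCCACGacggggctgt
Hsp90b1: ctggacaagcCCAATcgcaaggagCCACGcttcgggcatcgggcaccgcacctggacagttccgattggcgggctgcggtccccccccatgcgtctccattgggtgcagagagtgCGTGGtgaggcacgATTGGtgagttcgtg
Dnajc3: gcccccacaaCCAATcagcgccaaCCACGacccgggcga

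Hspa5 encodes BiP, the HSP70 of the endoplasmic reticulum. It read 12.20 and 12.71 in control and 12.41 and 12.40 in mutant crypts, a difference of -0.05 (SE 0.24), and the mutants lay between the controls; its other probe sets gave -0.71 (SE 0.28), with the arrays separated, and -0.24 (SE 0.36). Dnajc3, a BiP partner that also inhibits the kinase PERK, read 10.51 and 9.65 in control and 10.17 and 10.14 in mutant crypts, a difference of 0.08 (SE 0.35), again between the controls. Hsp90b1, given above, differed by -0.45 (SE 0.33). Of these genes with an element, 0 had mutant arrays above both controls.

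Some J proteins of this compartment bring clients to BiP or anchor it. Dnajc16 stood at 7.25 and 6.85 in control and 8.46 and 8.08 in mutant crypts, a difference of 1.22 (SE 0.37) or 2.33-fold higher, but its other probe set gave -0.03 (SE 0.48). Dnajc25 read 6.08 and 6.33 in control and 6.54 and 6.91 in mutant crypts, a difference of 0.52 (SE 0.37), from its single measured probe set. Dnajc1, a membrane J protein bound to ribosomes, read 8.44 and 8.48 in control and 8.65 and 8.80 in mutant crypts, a difference of 0.26 (SE 0.33). Of its other measured probe sets, 2 also had separated arrays, at 0.38 (SE 0.35) and 0.36 (SE 0.39). The remaining ones overlapped, at 0.02 (SE 0.44) and 0.08 (SE 0.46).

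The rest overlapped between the groups. Dnajb9, which is strongly induced by the unfolded protein response, read 9.64 and 8.93 in control and 9.97 and 9.46 in mutant crypts, a difference of 0.44 (SE 0.37), and Dnajb11, a soluble partner of BiP, differed by 0.24 (SE 0.36). The membrane proteins encoded by Dnajb12 and Dnajb14, which serve protein degradation, gave 0.59 (SE 0.59) and 0.01 (SE 0.35). Dnajc10, a disulphide reductase, gave 0.03 (SE 0.37) and Hspa13, an HSP70 relative of microsomes, 0.00 (SE 0.34). Of 10 measured folding enzymes and other genes of the compartment outside the rule, 5 were lower and 5 higher with 0 past the test. Pdia3, a disulphide isomerase that works with calnexin and calreticulin, stood at 8.72 and 7.58 in control and 6.93 and 7.37 in mutant crypts, a difference of -1.0 (SE 0.45), and the calcium-binding chaperone gene Calr differed by 0.37 (SE 0.31), Pdia4 by -0.51 (SE 0.44) and Creld2 by 0.31 (SE 0.34).

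**Figure D4:**
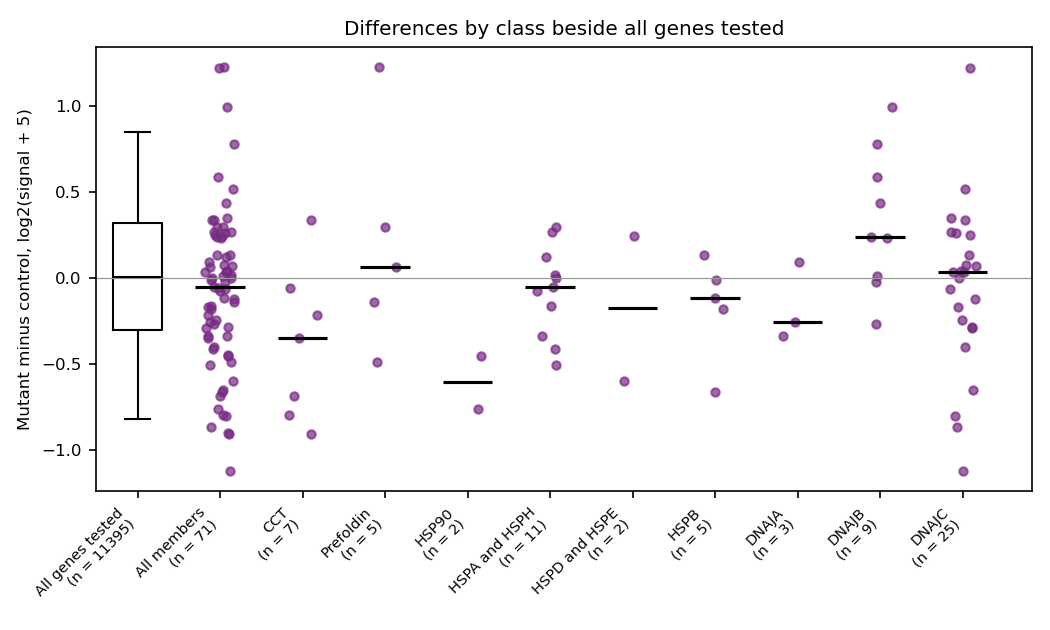
Differences, mutant minus control, on the log2(signal + 5) scale are shown for each measured member by class (points; black lines are class medians) beside all 11395 genes tested (box: quartiles and median; whiskers: percentiles 5 and 95). The CCT and HSP90 medians, -0.35 and -0.60, lie below that of all genes at 0.01 (the CCT median was 0.03 with median centring, against 0.13 for all genes), and the DNAJB median of 0.24 lies above it.

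J proteins of the A type have the full domain set of the bacterial prototype. Dnaja2 read 10.96 and 11.18 in control and 10.91 and 10.55 in mutant crypts, a difference of -0.34 (SE 0.28); 2 of its other probe sets also had separated arrays, at -0.17 (SE 0.32) and -0.84 (SE 0.41), and the remaining one overlapped at 0.11 (SE 0.62). Dnaja1 read 11.20 and 10.67 in control and 10.89 and 10.47 in mutant crypts and overlapped, a difference of -0.26 (SE 0.31). Dnaja4 lay just outside the filter on low signal.

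Among 9 measured B-type members, 7 were higher and 2 lower with a median of 0.24, and the arrays separated for 1 (11.1%), on the higher side, where 18.9% of all genes did. That one, Dnajb2, whose product binds ubiquitinated clients, read 6.85 and 7.16 in control and 8.01 and 7.98 in mutant crypts, a difference of 0.99 (SE 0.35) or 1.99-fold higher. It has a single measured probe set, and leaving out each array gave 0.86 to 1.14. As deposited the class again held 7 higher and 2 lower, and with median centring 8 and 1, with 4 separated higher (44.4%) under each, against 14.8% and 18.7% of all genes. Of the 5 members with a second measured probe set, 4 were higher at the brightest and 4 lower at the second. The class median was 0.50 without mutant replicate 1, 0.066 without mutant replicate 2 and 0.11 without control replicate 2. Dnajb1, the heat-inducible HSP40, read 10.70 and 10.70 in control and 10.69 and 11.20 in mutant crypts and overlapped, and Dnajb4 and Dnajb6, related cytosolic forms, gave 0.78 (SE 0.45) and -0.02 (SE 0.31). The second probe sets of Dnajb1 and Dnajb4 had both mutants below both controls, at -0.25 (SE 0.35) and -0.38 (SE 0.42). Dnajb5 gave -0.27 (SE 0.44).

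The C type is a mixed class that shares little beyond the J domain. Of 25 measured, 12 were lower and 13 higher, with a median of 0.03. Dnajc9 had the lowest difference of all measured members. Its product is a chaperone of histones H3 and H4 and is most abundant when DNA is replicated. It read 9.23 and 9.70 in control and 8.28 and 8.41 in mutant crypts, a difference of -1.12 (SE 0.34) or 2.17-fold lower, from its single measured probe set, and leaving out each array gave -1.37 to -0.89. The markers of dividing cells, which were lower on the same arrays, are given above; their part was not tested.

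Other C-type genes with separated arrays were dimmer or differed less. Dnajc28 read 6.31 and 5.72 in control and 4.72 and 5.57 in mutant crypts, a difference of -0.87 (SE 0.46). Dnajc18 gave -0.29 (SE 0.41) on the lower side. On the higher side Dnajc4 read 7.35 and 7.43 in control and 7.67 and 7.80 in mutant crypts, a difference of 0.35 (SE 0.34), and Dnajc13, which acts on endosomes, differed by 0.25 (SE 0.32).

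Small heat shock proteins, which hold unfolded proteins without using ATP, were dim in these crypts. Of 8 members, 5 passed the filter, and Hspb3, Hspb7 and Hspb9 did not. Hspb1 (HSP25 in the mouse) read 6.95 and 5.90 in control and 6.26 and 5.26 in mutant crypts, a difference of -0.66 (SE 0.51) with overlap, and its other probe set gave 0.56 (SE 0.49). Hspb8 gave -0.18 (SE 0.55) with other probe sets at 0.34 (SE 0.44) and 1.64 (SE 0.82). The muscle-enriched Hspb6 and Hspb2 gave -0.01 (SE 0.38) and -0.11 (SE 0.44), and Hspb11, a part of the ciliary transport machinery, 0.13 (SE 0.37).

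Hspbp1, an exchange factor of HSP70 that the prefix brought in, read 7.13 and 7.60 in control and 6.62 and 6.31 in mutant crypts, a difference of -0.90 (SE 0.37) or 1.86-fold lower. It has a single measured probe set, and leaving out each array gave -1.17 to -0.65. Hspbap1 read 6.80 and 5.86 in control and 5.61 and 6.16 in mutant crypts and overlapped, a difference of -0.44 (SE 0.45).

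Targets of heat shock factor were read as a list of 17 genes, 10 of which are members. They held 9 lower and 8 higher with a median of -0.05, against 0.01 over all genes, and the arrays separated for 4 lower (23.5%) and 2 higher (11.8%), against 19.2% and 18.9% of all genes. This split turned with the scaling, to 2 separated lower (11.8%) and 4 higher (23.5%) as deposited, against 14.9% and 14.8% of all genes. With median centring the counts were 2 (11.8%) and 3 (17.6%), against 10.1% and 18.7%. In all, 8 were lower and 9 higher as deposited, and 7 and 10 with median centring. As normalized here, the 4 lower were Hsp90aa1, Hspe1, Ahsa1 and Stip1, and the 2 higher were Hspd1 and Serpinh1, a collagen chaperone gene at 0.24 (SE 0.34). The inducible genes Hspa1a, Hspa1b, Dnajb1 and Hsph1 and the cochaperone gene Bag3, at 0.55 (SE 0.51), all overlapped. Of the heat shock factor genes and their regulator, Hsbp1 alone was measured and gave 0.25 (SE 0.33); Hsf2 and Hsf4 did not pass the filter.

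Promoter windows were available for 71 of the 86 members, 92 windows in all, and were searched on both strands. The motif GAANNTTC, made of a GAA and a TTC unit, occurred in 19.6% of the members' windows, in 16 members, and in 7.86% of all windows. A longer heat shock element of 3 alternating GAA and TTC units spaced by 2 bases, which contains that motif, occurred in 6.52% against 0.603%, in Dnajb6, Hspd1, Hspe1 and Hsph1. The members' share rests on 6 windows. Windows of Hspd1 and Hspe1 hold the same elements in their shared stretch, so these are counted more than once. Among these 4 genes the differences were -0.02 (SE 0.31), 0.25 (SE 0.20), -0.60 (SE 0.25) and -0.16 (SE 0.28). The E-box CACGTG was present in 8.7% and 7.15%, and CCAAT, which also forms part of the ER stress element, in 35.9% and 37.4%. These matches describe letters in a window and not binding.

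The filter on low signal cut through dim members. Just inside it, at means of 4.81 and 4.96, Dnajc5b and Hspb2 differed by 0.00 (SE 0.47) and -0.11 (SE 0.44). Just outside, at means of 4.49 and 4.36, Dnajb8 and Dnaja4 differed by -1.55 and 0.95. The 15 members outside the filter were not tested.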

How the data were processed

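Each of the 4 arrays is 1 sample of captured crypt RNA, amplified in 2 rounds and labelled with biotin per the labels' protocols. The authors deposited linear intensities per probe set, made with MAS5 per the submitters' processing notes (version and scaling target: not given in the sources used here). This method subtracts mismatch signal, so dim probe sets are noisy, and the number of arrays limits the precision.

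The scale is log2(intensity + 5), 5 being the rounded 20th percentile of the values. The 2% trimmed means of the arrays (130, 130, 169 and 111) differed by more than 10%, so quantile normalization followed. Probe sets at or above the median of mean log2 signal (4.79) were kept, without the 64 control probe sets. Groups were compared with limma 3.58.1 in R 4.3.3 (lmFit, eBayes with an intensity trend, two-sided, 2 residual and 6.4 prior degrees of freedom) and Benjamini-Hochberg adjustment over the kept probe sets. The fit was tested on simulated data. Of the probe sets, 34945 had 1 symbol, 932 several and 9160 none; all 86 members matched a RefSeq gene and 0 symbols differed.

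The members, lists and tests were chosen with earlier results of these data known. Named were all measured members of the chaperone classes, the 6 lower and 6 higher J proteins of smallest p with separated arrays, J proteins of the endoplasmic reticulum and mitochondrion, and up to 4 genes of each related list; further J proteins and list genes were named after their values were seen. The place lists were written after the values were seen. Replicate numbers of the titles were not taken to pair the samples, because the labels do not say that they do. The correlation of replicate 1 minus replicate 2 between the groups, over the kept probe sets, was 0.03. It cannot settle the question, since enterocyte and lymphocyte markers and the beta-actin ratio were higher in replicate 1 of both groups. Fibroblast markers were lower there. Alternatives covered scaling, pseudocount, filter, trend, robust estimation, a replicate block, probe set choice and leaving out each array; each gene kept its probe set except where the alternative was that choice.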

Additional observations from a re-analysis of the deposited data

How the results depend on the processing

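No member was called by limma in the fits with 2 arrays a group, with a lowest adjusted p of 0.493 for a member over these fits. Pseudocounts of 1 and 16 kept the sign of every member they measured. The filter settings (none and the 75th percentile), no intensity trend and robust estimation cannot change a difference. Their unchanged signs therefore add no support. Over the whole table the number of called probe sets, 0 here, was 2 with the values as deposited, 102 with median centring, 1 with the replicate block (1757 at an unadjusted p under 0.05) and 0 to 90 when each array was left out (20 without mutant replicate 1 and 90 without mutant replicate 2). The replicate block changed no call among the members. The rule of separated arrays with a 2-fold difference, which uses no p, picked 1102 of the 22519 probe sets tested. Of the 71 measured members it picked 3, Dnajc9, Dnajc16 and Pfdn5, which is no larger a share. The members' median difference of -0.05 became 0.028 as deposited, 0.15 with median centring, -0.094 with each gene's probe sets averaged, -0.35 at the second brightest probe set and -0.10 to -0.0079 when each array was left out. Members with both mutants below both controls, 20 here (28.2%; 19.2% of all genes), numbered 8 as deposited (11.3%; 14.9%), 8 with median centring (11.3%; 10.1%), 12 at the second brightest probe set (30.0%; 19.1%) and 30 to 33 when each array was left out (42.3% to 46.5%; 33.0% to 37.2%), where fewer arrays separate more easily. Those above, 9 here (12.7%; 18.9%), numbered 15 (21.1%; 14.8%), 13 (18.3%; 18.7%), 3 (7.5%; 15.5%) and 16 to 22 (22.5% to 31.0%; 32.1% to 38.7%), and 14 members were higher at the second brightest probe set. The excess on the lower side thus did not hold under the other scalings. Among members with separated arrays the sign turned for Cct2 (0.036 as deposited, 0.16 with median centring), Cct6a (0.027 with median centring), Cct3 (-0.12 with probe sets averaged, -0.74 without probe sets ending in _x_at or _s_at, -0.47 at the second brightest), Hspe1 (0.021 both without those probe sets and at the second brightest) and Dnajc16 (-0.028 at the second brightest). Leaving out each array, at the same probe sets, turned the sign of 0 of the 29 members with separated arrays. Separated arrays all but fix that sign beforehand, so this count adds no support. The last alternatives on probe sets were added after seeing the data, and the cause of these turns was not tested.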
